A study of Mus musculus with 24 samples.

Results

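The comparison described here is the difference between brown and white mouse fat cells in how gene expression changed from day 4 to day 7 of primary culture, that is, the day 7 minus day 4 change in brown cells minus the same change in white cells. All 24 arrays of the study enter it. Of brown cells, 5 arrays are from day 4 (numbered 05, 06, 09, 10 and 19 in the labels) and 5 from day 7 (07, 08, 11, 12 and 22). Of white cells, 8 are from day 4 (33, 34, 37, 38, 41, 42, 45 and 51) and 6 from day 7 (35, 36, 39, 40, 43 and 44). Every non-control probe set of the Affymetrix U74Av2 array belongs to it, 12422 of the 12488 in the deposited table, and 8397 of these had enough signal to be tested, whereas 4025 did not. A positive value means that a gene rose more, or fell less, in brown cells than in white cells. Values are differences of mean log2 signal, with the standard error of the fit after ±, and a difference of 1 is a 2-fold difference between the changes. The brown cells came from brown fat and the white cells from white fat, and both were cultured after isolation. The labels call day 4 cells not differentiated and day 7 cells differentiated, for both tissues alike. The mouse strain, age and genotype and the agents of the culture medium are not given in the sources used here. Nothing in the labels tells whether a group's arrays stand for different mice or cultures, and every p-value therefore rests on a spread between arrays that could be technical.

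Adipocytes form when preadipocytes leave the cell cycle and the transcription factors Pparg and Cebpa switch on the genes of lipid storage and of secreted fat hormones such as adiponectin. Brown adipocytes go on to make mitochondria that burn fatty acids for heat through Ucp1, and their precursors are related to those of skeletal muscle. Cultures made from fat depots also carry blood vessel cells, macrophages and other cells of the tissue, whose genes are read on the same arrays. The series was designed to compare preadipocytes and mature adipocytes of brown and white fat, and the difference in change asks which genes the course of culture moved differently in each.

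The arrays were similar in brightness, with median signals of 41.9 to 59. For Gapdh, the ratio of 3' to 5' signal, which grows when RNA is shortened from its 5' end, lay at 0.769 to 0.999 at brown day 4, 0.854 to 0.942 at brown day 7, 0.841 to 1.10 at white day 4 and 1.09 to 1.54 at white day 7. On the log2 scale it changed by 0.01 in brown and by 0.52 in white cells, a difference of -0.51 (exact permutation test, two-sided, p = 0.00343, adjusted over the Gapdh and actin ratios to 0.00685). The actin ratio gave -0.47 (exact permutation p = 0.0293, adjusted 0.0293), and it missed the threshold when array 05, 06, 08 or 22 was left out (-0.43 for each). These ratios therefore moved with the comparison itself, and each gene that passed is given with its value in a fit that holds the Gapdh ratio as a covariate. The Gapdh ratio barely overlapped between the white days, so ratio and day cannot be fully separated in white cells. Whether a gene failed in that fit through RNA quality or through lost precision was not tested. Array numbers in the labels ran from 05 to 22 for brown and from 33 to 51 for white, so cell type and array number cannot be told apart. Markers of the 2 lineages matched the labels. The brown-lineage factor Zic1 was at 58.4 to 119 at brown day 4 and at the floor of 8.22 in every white sample, and Tcf21, a white-lineage factor, was at 239 to 471 at white day 7 and at most 23.7 in brown cells. Ucp1 was too dim to be tested. Its brighter probe set had a median of 19.4 (8.22 to 42.6) at brown day 4 and 53.1 (17.4 to 125) at brown day 7, against 8.22 and 9.95 in white cells.

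Few genes passed the test of a different change in the 2 cell types. They included genes of plasma proteins (Ahsg, Kng1 and Apod) and vessel cells (Cd34, Sox18) that were positive, and genes of skeletal muscle (Acta1, Tnnt1) and metabolism (Cyp2e1, Amy1) that were negative. Of the 8397 probe sets, 18 (0.214%) passed an adjusted p of 0.05 in the difference in change (limma, Benjamini-Hochberg), 14 of them positive (0.167%) and 4 negative (0.0476%). At an unadjusted p under 0.05 there were 670 (7.98%). By contrast, 1012 probe sets (12.1%) changed between the days in brown cells and 1595 (19%) in white cells. The white count fell to 37 with the Gapdh covariate and to 6 with the actin covariate, while the brown count was 1045 and 836, so the white counts that follow hold only for the fit without these ratios. The 601 that changed in both made up 59.4% of the brown and 37.7% of the white changes, and 597 of them moved in the same direction. Of the 411 that passed in brown cells alone, 364 (88.6%) had the same sign in white cells and 7 passed in the difference. Of the 994 that passed in white cells alone, 864 (86.9%) had the same sign in brown cells and 5 passed in the difference. Passing in a single cell type was thus seldom accompanied by a difference that could be told from 0. The standard error of the difference had a median of 0.30, and the 95% interval lay within a 2-fold difference in either direction for 5031 probe sets (59.9%). A difference of more than 1 in size was estimated for 340 probe sets, of which 18 passed (5.29%), and the smallest that passed was 1.06.

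**Figure D1:**
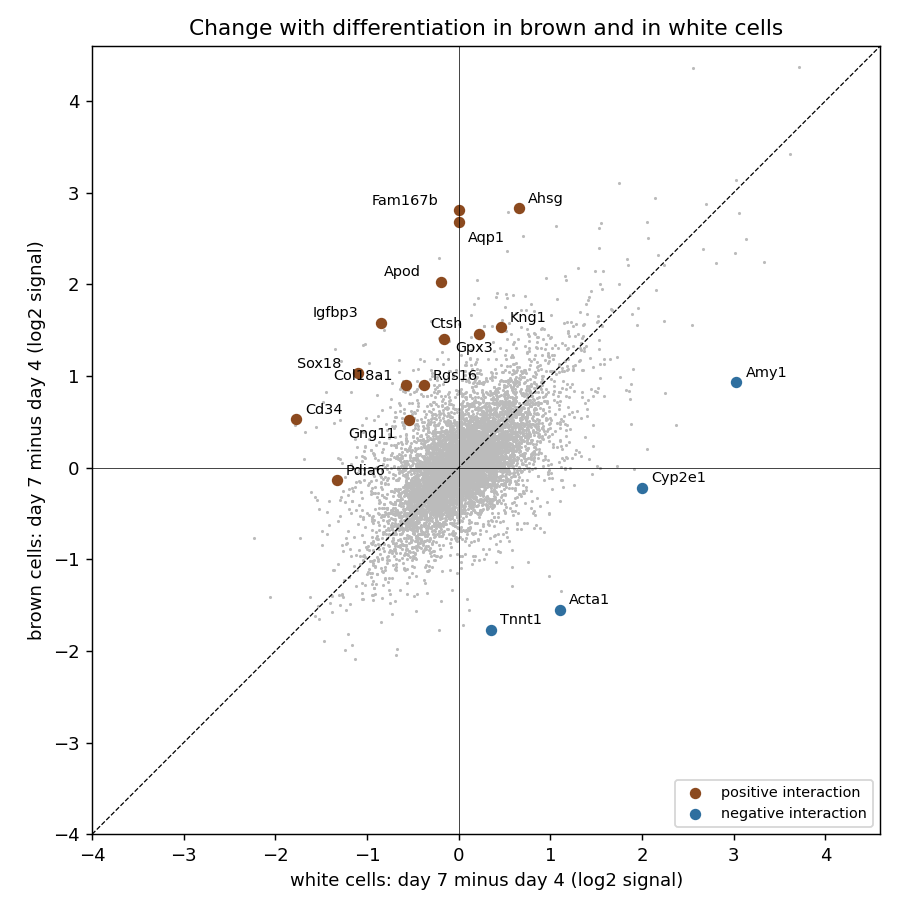
Each point is 1 of the 8397 tested probe sets, with its log2 change from day 4 to day 7 in white cells on the horizontal axis and in brown cells on the vertical axis. The dashed line marks equal changes, grey points did not pass in the difference, and the 18 coloured points that passed lie above the line (14, brown) or below it (4, blue).

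The 18 probe sets belonged to 18 genes. Over the brightest probe set of each gene, 12 of 6281 genes passed (0.191%), 9 of them positive (0.143%) and 3 negative (0.0478%). For 5 of the 18 the mean gap between brown and white cells kept its sign and was smaller at day 7 than at day 4 (Ahsg, Acta1, Igfbp3, Ctsh and Kng1), and for 7 it kept its sign and was larger (Aqp1, Gng11, Col18a1, Cd34, Amy1, Apod and Sox18). For Gpx3, Tnnt1, Rgs16, Pdia6 and Cyp2e1 its sign differed between the days, and Gpx3 was the 1 gene of these 5 whose gap passed on both days. Fam167b lay at the floor in both cell types at day 4 on all but 1 array. Arrays of the 2 days were apart in brown cells for 13 of the 18 and in white cells for 4. The 18 were selected on these same arrays, which favours such separation, and its share over all tested probe sets was not counted. Acta1, Igfbp3, Col18a1 and Gng11 passed in both cell types with opposite signs. For Aqp1, Igfbp3, Col18a1, Tnnt1, Cd34 and Sox18 the probe set that passed was not the brightest of its gene, and these 6 genes were taken up after their values were seen. Their brighter probe sets are given beside them.

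**Figure D2:**
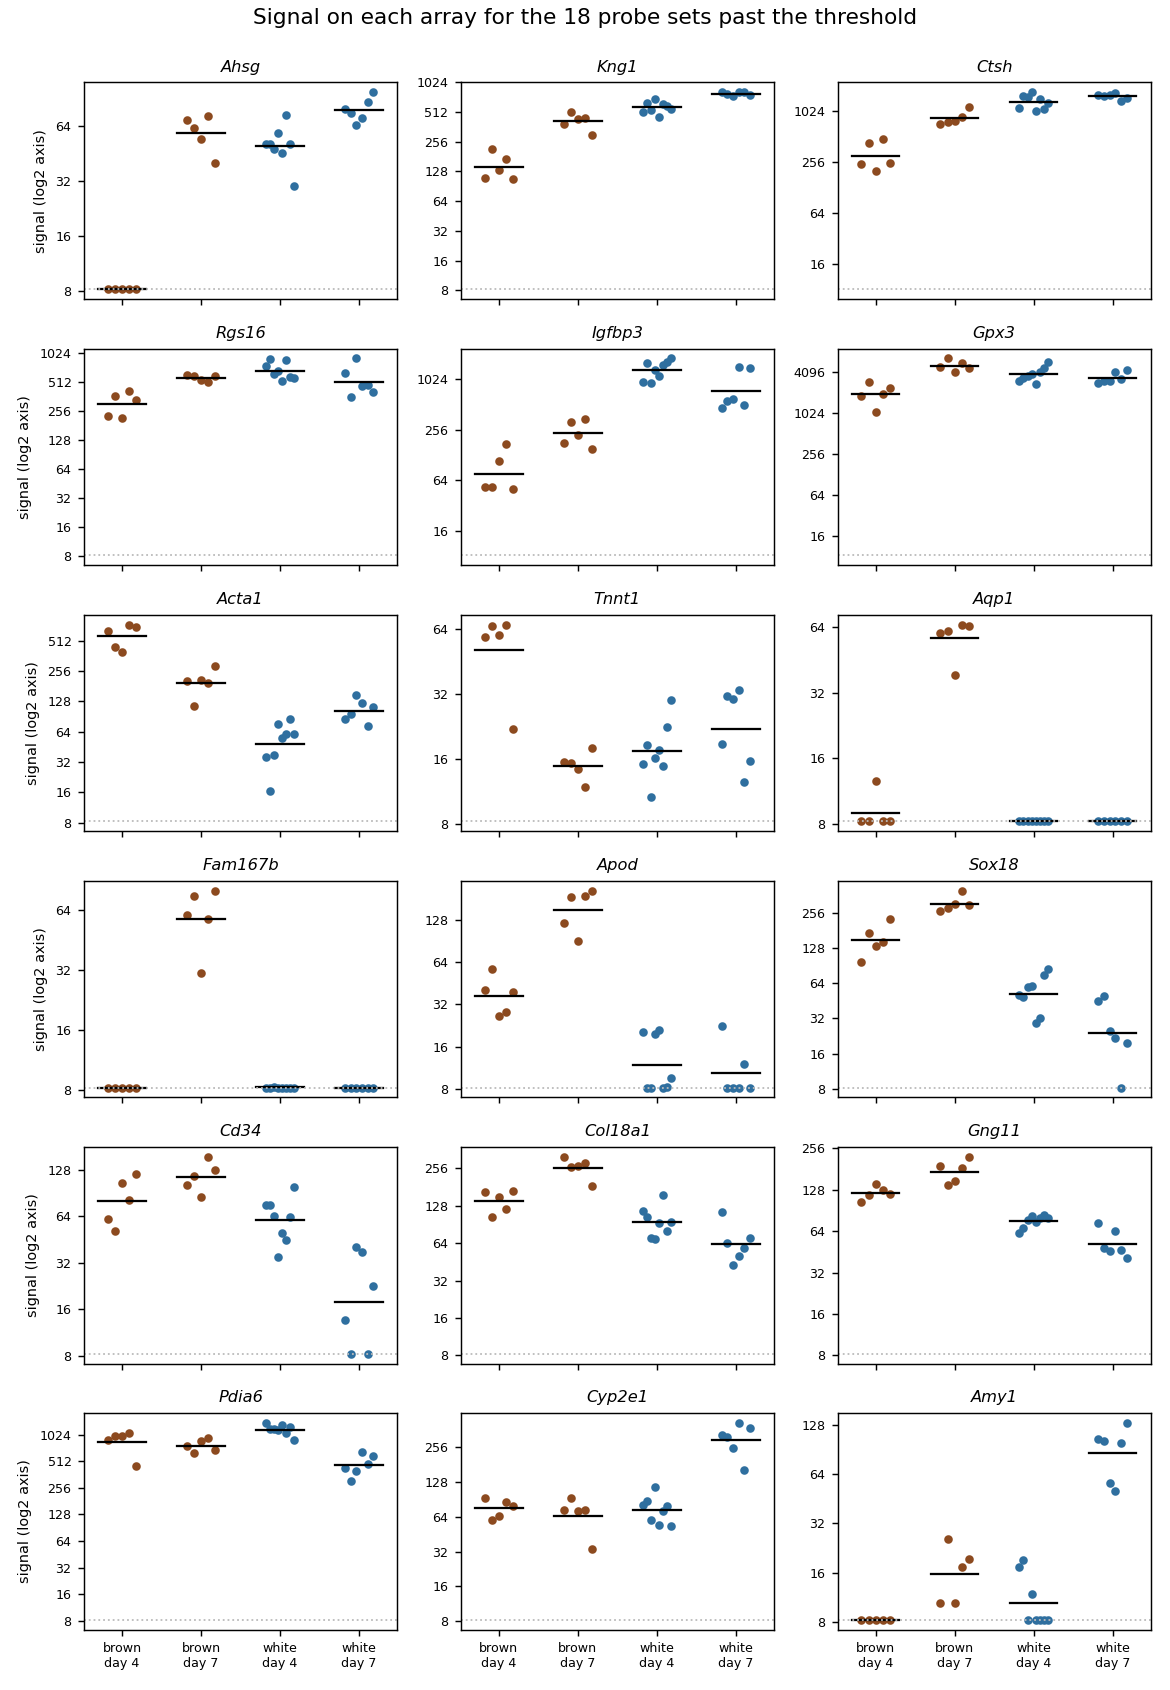
Each panel shows 1 of the 18 probe sets, with signal on a log2 axis and each point 1 array, at brown day 4 and day 7 (brown points, 5 arrays each) and white day 4 and day 7 (blue points, 8 and 6 arrays). Black bars are geometric means after values under the dotted floor of 8.22 were set to it. Fam167b and Aqp1 leave the floor in brown day 7 cells, and Cyp2e1 and Amy1 are highest in white day 7 cells.

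Genes of plasma proteins stood among those that rose more in brown cells. Ahsg (99862_at), which encodes fetuin-A, a plasma glycoprotein that keeps calcium phosphate in solution, was below the floor on all 5 brown day 4 arrays. At brown day 7 it read 69.3, 62.3, 54.6, 72.6 and 40.3, a rise of at least 7.13-fold. White cells already carried it at day 4 (30.2 to 74.1, median 50.9) and reached 65.2 to 98.4 (median 77.7) at day 7. The brown days did not overlap, the white days did, and brown day 7 arrays overlapped white day 7 arrays. The change was 2.83 in brown and 0.66 in white cells, a difference of 2.17 ± 0.28 (adjusted p = 0.000275), which held without any single array (2.09 to 2.31). Because brown day 4 lay at the floor, the size rests on it: with a floor at the 40th percentile, a signal of 29.0, the difference was 0.36 (adjusted p = 0.748). Holding the Gapdh ratio as a covariate gave 2.16 (adjusted p = 0.0178).
The promoter of Ahsg is shown for the gene with the smallest p-value, from RefSeq on GRCm38.p6, with 250 bases before and 50 after the transcription start. The capitals mark a match to TTGCNNAA, letters bound by the C/EBP factors of adipocyte differentiation, on the minus strand at positions -32 to -25. Searched on both strands, these letters occur in 10.8% of the 32851 promoters of the same length, so the match is a description only.
Ahsg promoter, chr16:22891765-22892064, plus strand: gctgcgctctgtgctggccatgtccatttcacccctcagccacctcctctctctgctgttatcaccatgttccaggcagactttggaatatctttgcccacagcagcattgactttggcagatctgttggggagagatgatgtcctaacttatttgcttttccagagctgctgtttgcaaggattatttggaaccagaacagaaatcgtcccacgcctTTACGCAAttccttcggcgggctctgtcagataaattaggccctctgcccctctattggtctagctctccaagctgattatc

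Kng1 (93837_at), kininogen, the precursor of the vasoactive peptide bradykinin, read 111, 218, 132, 172 and 107 at brown day 4 and 390, 516, 438, 451 and 297 at brown day 7. White arrays read 453 to 695 (median 571) and then 746 to 815 (median 793). No 2 groups overlapped, apart from brown day 7 with white day 4. It rose 2.88-fold in brown and 1.38-fold in white cells, a difference of 1.07 ± 0.22 (adjusted p = 0.0393). Apod (93592_at), apolipoprotein D, a lipocalin that carries small lipids, was at 40.3, 56.7, 26.6, 28.2 and 39.2 at brown day 4 and at 120, 184, 90.4, 187 and 205 at brown day 7. White cells stayed near the floor on both days, at no more than 21.0 and 22.6, with 3 of 8 and 4 of 6 arrays at the floor, and did not reach the lowest brown array. The difference for Apod was 2.22 ± 0.48 (adjusted p = 0.0477). Both calls were marginal. Holding the Gapdh ratio as a covariate gave differences of 0.86 for Kng1 (adjusted p = 0.668) and 2.82 for Apod (adjusted p = 0.0912). With 1 array left out, Kng1 passed only if that array was 06, 10, 22, 33, 35, 40, 41 or 51 (range over all single arrays left out 0.96 to 1.22, adjusted p up to 0.102). Apod passed only if it was 06, 11, 35 or 51 (2.10 to 2.45, adjusted p up to 0.148).

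Of the 24 tested genes on the plasma and acute phase protein list, these 3 passed. Another 3 were positive at an unadjusted p under 0.05, and Rbp4, the retinol carrier, was negative (-0.71 ± 0.24, adjusted p = 0.304). The 6 positive genes of 24 compare with 4.52% of all 6281 genes, and the list median was 0.14 against 0.00 over all probe sets. The other positive members, named after their values were seen, were Agt, angiotensinogen (1.88 ± 0.42, adjusted p = 0.0544), and the acute phase genes Saa3 (1.37 ± 0.36, adjusted p = 0.133) and Serpina3n (1.12 ± 0.34, adjusted p = 0.211). With the Gapdh covariate 5 were positive and the list median was -0.07, but the share of all genes in that fit was not counted. From day 4 to day 7, 14 of the 24 rose in brown cells, against 6.48% of all genes, and 14 rose in white cells, against 9.03%.

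Among skeletal muscle genes, 2 passed with a negative difference, and both fell in brown cells. Acta1 (100381_at), skeletal muscle alpha-actin, read 633, 440, 398, 738 and 702 at brown day 4 and 205, 115, 208, 195 and 283 at brown day 7. White arrays read 16.5 to 86.0 (median 57.7) at day 4 and 73.0 to 147 (median 104) at day 7. The brown days did not overlap, and at day 4 every brown array was above every white array, by 11.7-fold on average, but at day 7 the cell types overlapped and differed by 1.87-fold. Acta1 fell by 1.55 in brown and rose by 1.10 in white cells, a difference of -2.64 ± 0.42 (adjusted p = 0.00213). It passed under every alternative tried, and the difference was -3.23 with the Gapdh covariate (adjusted p = 0.0178).
The promoters of Acta1 and Tnnt1 are shown because both are muscle genes that passed with a negative sign. The capitals mark 3 motifs in Acta1: the E-box CAGCTG bound by myogenic factors at positions -221 to -216, the CArG box bound by serum response factor at -73 to -64, and the TATA box TATAAA at -7 to -2. In Tnnt1 they mark TATAAA at -30 to -25. Each was searched on both strands in all 32851 RefSeq promoters of 300 bases, of which 16.3% held CAGCTG, 1.63% a CArG box and 13.6% TATAAA. None of these matches overlaps another.
Acta1 promoter, chr8:123894726-123895025, minus strand: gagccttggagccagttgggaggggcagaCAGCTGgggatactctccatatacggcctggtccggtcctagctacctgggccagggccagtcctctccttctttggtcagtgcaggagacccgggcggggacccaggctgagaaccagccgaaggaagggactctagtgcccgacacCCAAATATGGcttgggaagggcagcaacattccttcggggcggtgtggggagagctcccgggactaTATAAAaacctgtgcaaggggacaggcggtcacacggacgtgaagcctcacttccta
Tnnt1 promoter, chr7:4515926-4516225, minus strand: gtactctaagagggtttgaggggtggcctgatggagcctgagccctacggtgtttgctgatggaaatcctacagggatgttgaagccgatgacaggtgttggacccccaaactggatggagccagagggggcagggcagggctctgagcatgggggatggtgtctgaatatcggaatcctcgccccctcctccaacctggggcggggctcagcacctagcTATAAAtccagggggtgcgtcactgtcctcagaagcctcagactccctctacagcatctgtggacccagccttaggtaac

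Tnnt1 (161361_s_at), the slow skeletal form of troponin T, read 58.5, 66.0, 59.9, 66.8 and 21.9 at brown day 4 and 15.5, 15.3, 14.4, 11.8 and 18 at brown day 7. White arrays read 10.6 to 29.8 (median 16.8) and 12.5 to 33.4 (median 24.5), overlapping each other and the brown day 7 arrays. The difference was -2.12 ± 0.45 (adjusted p = 0.0477). Of the fits that left out 1 array, it passed only in those without array 19, 35, 43, 44 or 51 (-2.42 to -2.00, adjusted p up to 0.130). Holding the Gapdh ratio as a covariate gave -2.80 (adjusted p = 0.0604). The brighter probe set of Tnnt1 gave -0.28 ± 0.29 (adjusted p = 0.881), so the probe sets of this gene disagree.

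Of 31 tested genes on the striated muscle structure list, 10 were negative at an unadjusted p under 0.05, against 2.80% of all genes, and 1 of these, Acta1, passed over all probe sets. The list median was -0.34. Those named next, after their values were seen, did not pass. They were cardiac alpha-actin Actc1 (-1.21 ± 0.29, adjusted p = 0.0905), the myosin-binding protein Mybph (-1.25 ± 0.35, adjusted p = 0.162), the intermediate filament protein desmin, Des (-1.87 ± 0.60, adjusted p = 0.266), and troponin C, Tnnc1 (-1.10 ± 0.35, adjusted p = 0.258). For each of these 4 the estimate was below 0 in brown cells and above 0 in white cells, as for Acta1. Myoglobin, Mb, the oxygen store of muscle, had the opposite sign (1.48 ± 0.60, adjusted p = 0.478). Myog, the factor that starts the last step of muscle differentiation, read 238, 94.4, 246, 142 and 353 at brown day 4 and 63.4, 30.6, 106, 54.4 and 62.8 at brown day 7, with the 2 days overlapping in 1 value each, and 29.4 to 66.0 and 24.5 to 92.3 in white cells. Myog fell by 1.72 in brown cells (adjusted p = 0.00186), and its difference of -1.77 ± 0.47 did not pass (adjusted p = 0.135), except without array 06 (-2.03, adjusted p = 0.0488). The summed signal of the 31 genes was 5214 to 6756 at brown day 4, 4280 to 5130 at brown day 7, 3883 to 5014 at white day 4 and 3965 to 5425 at white day 7. Within brown cells 3 of the 31 passed with a fall and 1 with a rise (6.50% and 6.48% of all genes). Within white cells 4 passed with a rise and 1 with a fall (9.03% and 10.4%). Some negative differences came from white cells, as for the myosin gene Myl1 (0.46 in brown, 1.47 in white cells). In whole cultures, a change in the number of muscle cells and in RNA per muscle cell cannot be told apart. With the Gapdh covariate 9 of the 31 were negative and none was positive, and without white day 4 arrays 45 and 51, 8 were negative. The share of all genes in these 2 fits was not counted, and 2.80% does not apply to them.

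**Figure D3:**
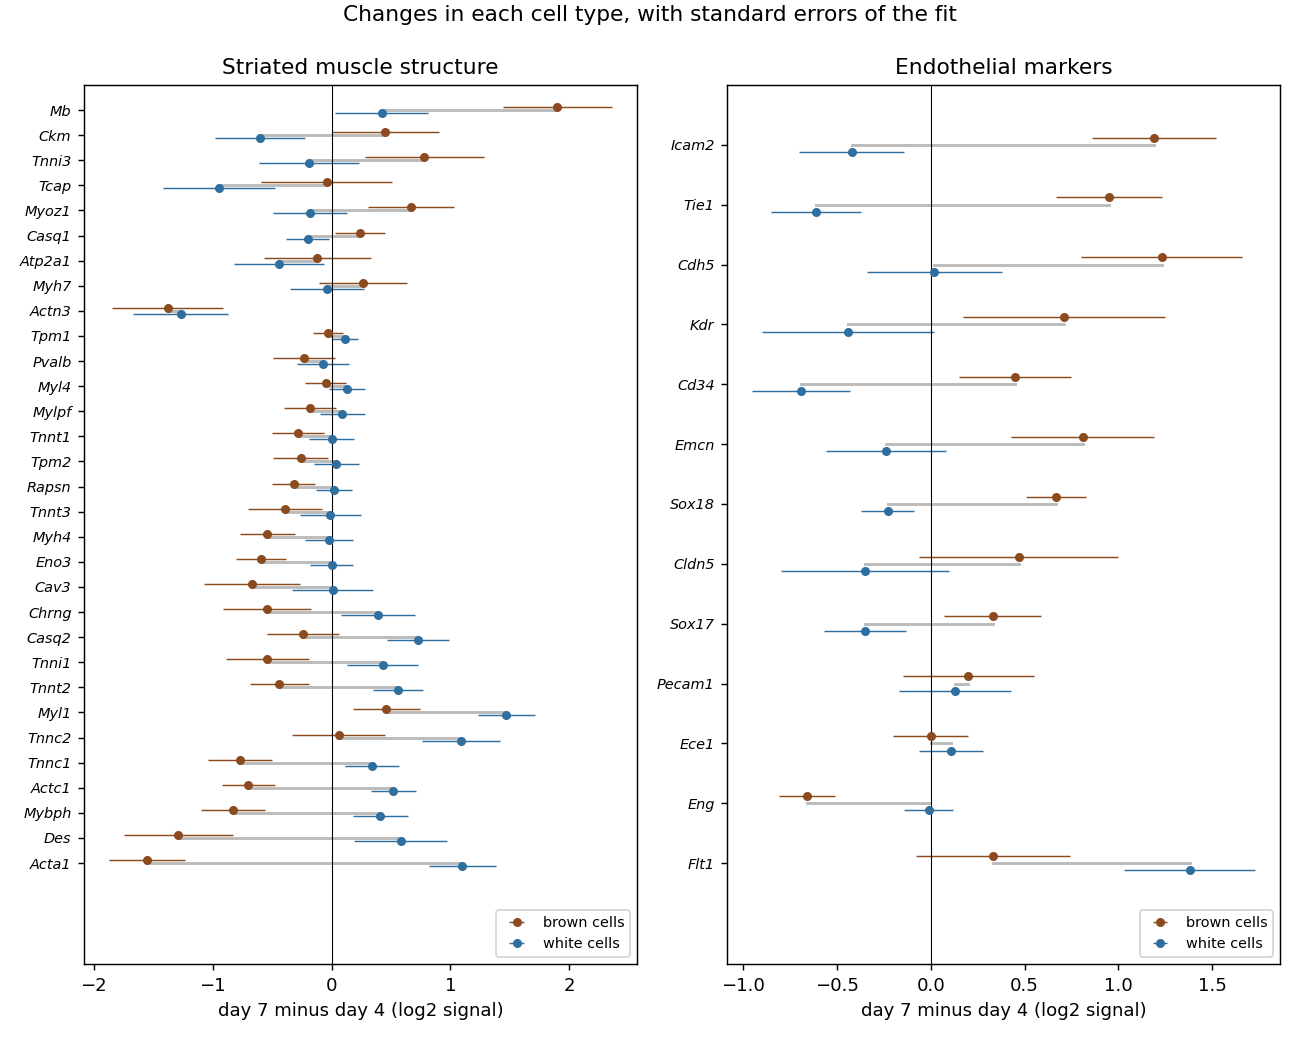
For each tested member of the striated muscle structure list (31 genes, left) and the endothelial marker list (13 genes, right), the brown point is the day 7 minus day 4 log2 change in brown cells and the blue point that in white cells, with bars of 1 standard error and a grey line for the difference. Members are ordered by the difference, from Acta1 (-2.64) at the bottom of the left panel to Icam2 (1.61) at the top of the right panel.

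Genes of blood vessel cells and their basement membrane were among the positive ones. The probe sets of Cd34, Sox18 and Col18a1 that passed each fell in white cells. The brighter probe sets of Cd34 and Sox18 changed by -0.69 and -0.23 there, which did not pass (limma, adjusted p = 0.0618 and 0.249). The brightest of Col18a1 changed by -0.11. Cd34 (97773_at), a surface mucin of vessel and progenitor cells, read 62.1, 51.9, 105, 81.5 and 121 at brown day 4 and 102, 118, 85.5, 156 and 128 at brown day 7. White arrays read 34.8 to 100 (median 63.9) at day 4 and 8.22 to 40.4 (median 18.1) at day 7, where 2 of 6 lay at the floor. The cell types overlapped at day 4 and were apart at day 7. The difference was 2.30 ± 0.50 (adjusted p = 0.0477), and for the brighter probe set it was 1.14 ± 0.40 (adjusted p = 0.329). Sox18 (104408_s_at), a transcription factor of endothelial cells, read 96.4, 173, 132, 145 and 226 and then 264, 281, 302, 394 and 295 in brown cells. White arrays read 29.0 to 83.9 (median 54.9) and then 8.22 to 50 (median 23.4). Brown arrays of both days lay above all white arrays, and the difference was 2.13 ± 0.47 (adjusted p = 0.0477), with 0.90 ± 0.21 (adjusted p = 0.0844) for the brighter probe set. With 1 array left out, Cd34 passed only if that was 38, 39 or 40 (2.08 to 2.54, adjusted p up to 0.148), and Sox18 only if it was 35, 36 or 41 (1.82 to 2.34, adjusted p up to 0.148). In the fit with the Gapdh covariate the differences were 1.58 for Cd34 (adjusted p = 0.866) and 2.27 for Sox18 (adjusted p = 0.311).

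Col18a1 (101881_g_at), the basement membrane collagen from which endostatin is cut, read 165, 103, 151, 120 and 167 at brown day 4 and 317, 262, 266, 281 and 185 at brown day 7. White arrays read 69.6 to 157 (median 93.6) and then 42.7 to 114 (median 61.2). It rose 1.86-fold in brown cells and went to 0.668 of its day 4 level in white cells, and the difference was 1.48 ± 0.31 (adjusted p = 0.0423). Of the fits that left out 1 array, it passed only in those without array 22, 35, 37, 38, 41, 44 or 51 (1.36 to 1.65, adjusted p up to 0.102). Holding the Gapdh ratio as a covariate gave 1.55 (adjusted p = 0.297). The brightest of its other probe sets gave 0.46 ± 0.23, and the other tested ones gave 1.13 ± 0.57 and 1.69 ± 0.63.

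On the list of 13 tested endothelial markers, taken by the brightest probe set of each gene, 6 were positive at an unadjusted p under 0.05 (4.52% of all genes) and 1 was negative (2.80% of all genes), with a median of 0.90. None passed over all probe sets. Members named after their values were seen were the adhesion molecule Icam2 (1.61 ± 0.43, adjusted p = 0.144), the receptor Tie1 (1.56 ± 0.37, adjusted p = 0.0844) and Cdh5, the cadherin of endothelial junctions (1.20 ± 0.56, adjusted p = 0.596). Eng, a co-receptor for TGF-beta, went the other way (-0.64 ± 0.20, adjusted p = 0.253). So did the receptor Flt1 (-1.05 ± 0.54, adjusted p = 0.669), which rose by 1.38 in white cells (adjusted p = 0.00691). Flt1 was the 1 listed gene whose change in white cells passed, and none passed with a fall there. The receptor Kdr gave 1.15 ± 0.71 (adjusted p = 0.757). Of the defining markers, Cdh5 was at 85.0 to 218 and then 178 to 385 in brown cells, and at 14.3 to 88.9 and then 20 to 79.0 in white cells. Pecam1 differed little, with medians of 52.8, 57.8, 59.9 and 83.9 from brown day 4 to white day 7. The summed signal of the list was 2309 to 3850 at brown day 4, 2464 to 3405 at brown day 7, 1775 to 2559 at white day 4 and 1871 to 2478 at white day 7, so that it overlapped between the days in both cell types. The part of endothelial cells in the results for Cd34, Sox18 and Col18a1 was not tested. With the Gapdh covariate 6 markers were positive, and without white day 4 arrays 45 and 51 there were 4. For these 2 fits the share of all genes was not counted.

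Aqp1 and Fam167b were above the floor almost only in brown day 7 cells. Both exceeded 29.0, the 40th percentile signal, only on brown day 7 arrays. They therefore entered the test only through the group where they were high. Fits without single arrays kept the same probe sets, so neither these fits nor the p-values are independent of that selection. Aqp1 (93330_at), a water channel, read 60.4, 61.5, 38.8, 66.0 and 65.3 at brown day 7. At brown day 4 it was above the floor on 1 array, at 12.6, and every white sample was at the floor. Day 7 brown cells were thus at least 6.98-fold above white cells. The difference was 2.68 ± 0.39 (adjusted p = 0.000619) and held without any single array, but with no floor it did not pass (2.89, adjusted p = 0.141). It was 0.98 with the floor at the 40th percentile and 2.71 (adjusted p = 0.0358) with the Gapdh covariate. The other tested probe set of Aqp1, which was brighter, gave -0.42 ± 0.72 (adjusted p = 0.945), so the probe sets disagree. Fam167b (103641_at) read 59.8, 74.8, 30.7, 57.3 and 79.5 at brown day 7 and was at the floor on all brown day 4 and white day 7 arrays and on 7 of 8 white day 4 arrays, the other being at 8.29. It rose at least 6.99-fold in brown cells, and the difference was 2.81 ± 0.41 (adjusted p = 0.000619). With 3 of the 4 groups at or near the floor, its size rests on the floor: it was 0.99 with the floor at the 40th percentile and 3.66 with none, and it passed with both. Holding the Gapdh ratio as a covariate gave 2.85 (adjusted p = 0.0358).
The promoter of Aqp1 is shown because this gene lay at or near the floor in 3 of the 4 groups. The capitals mark AGGAAG, letters bound by ETS factors of vessel and blood cells, at positions -29 to -24. Searched on both strands, they occur in 35.4% of the 32851 promoters, and the match is a description only.
Aqp1 promoter, chr6:55336049-55336348, plus strand: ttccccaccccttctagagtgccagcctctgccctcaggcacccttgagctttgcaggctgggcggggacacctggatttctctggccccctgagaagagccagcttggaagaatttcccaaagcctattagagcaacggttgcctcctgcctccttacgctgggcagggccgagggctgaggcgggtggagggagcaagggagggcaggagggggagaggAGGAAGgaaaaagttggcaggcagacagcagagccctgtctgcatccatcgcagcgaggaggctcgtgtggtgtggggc

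Cyp2e1 and Amy1, genes of metabolism and digestion, rose in white cells and did not pass in brown cells. Cyp2e1 (93996_at), a cytochrome P450 that oxidises ethanol and other small molecules, read 93.2, 60.1, 65.0, 86.1 and 79.7 at brown day 4, 72.5, 92.7, 71.6, 73.1 and 33.5 at brown day 7, and 53.2 to 116 (median 75.2) at white day 4. These 3 groups overlapped. At white day 7 it read 161 to 410 (median 317), and every array was above every array of the other groups. The difference was -2.22 ± 0.34 (adjusted p = 0.00127) and passed under every alternative tried, at -2.56 (adjusted p = 0.0178) with the Gapdh covariate. Amy1 (101058_at), an amylase that cuts starch, was at the floor on all 5 brown day 4 arrays and on 5 of 8 white day 4 arrays. It read 10.5, 25.5, 10.5, 17.4 and 19.4 at brown day 7 and 50.7 to 131 (median 101) at white day 7. It rose at least 8.16-fold in white cells. In brown cells day 7 was at least 1.91-fold above day 4, which did not pass (adjusted p = 0.0817). Amy1 exceeded 29.0, the 40th percentile signal, only on white day 7 arrays, so it entered the test only through the group where it was high. The difference of -2.10 ± 0.46 (adjusted p = 0.0477) depends on the floor, and with the Gapdh covariate it was -1.91 (adjusted p = 0.644). With 1 array left out, it passed only if that was 08, 33, 34 or 40 (-2.27 to -1.95, adjusted p up to 0.111). The amylase genes are near-identical copies, so the array may read several of them.
The promoter of Cyp2e1 is shown because the gene passed in the difference under every alternative tried. The capitals mark the TATA box TATAAA at positions -31 to -26.
Cyp2e1 promoter, chr7:140763569-140763868, plus strand: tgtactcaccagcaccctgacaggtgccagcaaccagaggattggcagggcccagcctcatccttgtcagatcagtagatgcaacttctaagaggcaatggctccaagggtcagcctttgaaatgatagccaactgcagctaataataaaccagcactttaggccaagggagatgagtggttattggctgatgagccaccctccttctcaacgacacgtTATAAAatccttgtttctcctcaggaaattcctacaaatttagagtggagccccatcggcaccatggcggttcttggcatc

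Igfbp3 (95083_at), which binds insulin-like growth factors and limits their access to the receptor, read 53.7, 53.4, 109, 172 and 50.8 at brown day 4 and 180, 318, 220, 348 and 151 at brown day 7. White arrays read 927 to 1813 (median 1419) at day 4 and 467 to 1412 (median 576) at day 7. White cells were above brown cells on every array of both days, by 17.1-fold at day 4 and by 3.17-fold at day 7. Igfbp3 rose by 1.58 in brown cells and fell by 0.85 in white cells, a difference of 2.43 ± 0.45 (adjusted p = 0.0117) that held without any single array. Holding the Gapdh ratio as a covariate gave 0.98 (adjusted p = 0.904). The brighter probe set gave 1.85 ± 0.44 (adjusted p = 0.0844), with a change of 0.20 in white cells.

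Of the 16 tested genes of the insulin-like growth factor system, 4 were positive (4.52% of all genes) and 2 negative (2.80% of all genes) at an unadjusted p under 0.05, and the median was 0.21. Igf1, the growth factor itself, read 61.4, 146, a value below the floor, 23.9 and 64.9 at brown day 4 and 325, 237, 167, 236 and 606 at brown day 7, with no overlap. White arrays were higher, at 778 to 1764 and 1179 to 2128. The difference of 2.26 ± 0.61 did not pass (adjusted p = 0.151). It passed with array-number runs as a fixed block (2.31, adjusted p = 0.0448) and without array 06 (2.72, adjusted p = 0.0268). On the arrays in runs with no block it did not pass (2.31, adjusted p = 0.191). The mean of the probe sets of Igf1 gave 1.14 (adjusted p = 0.201). Others named after their values were seen were Grb10, an inhibitor of insulin and growth factor receptors (1.32 ± 0.36, adjusted p = 0.151), and the binding protein Igfbp6 (-1.22 ± 0.45, adjusted p = 0.381).

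The other genes that passed had roles in redox balance, protein breakdown, signalling and protein folding. Gpx3 (101676_at), a secreted glutathione peroxidase that removes peroxides, read 1818, 2962, 1067, 1926 and 2423 at brown day 4 and 4895, 6528, 4114, 5636 and 4637 at brown day 7. White arrays read 2780 to 5771 (median 3734) and 2823 to 4367 (median 3151). Brown cells were lower than white cells on average at day 4 and higher at day 7, and the difference was 1.56 ± 0.28 (adjusted p = 0.00941), which held without any single array and was 1.06 (adjusted p = 0.657) with the Gapdh covariate. Ctsh (94834_at), the lysosomal protease cathepsin H, read 247, 438, 205, 484 and 254 at brown day 4 and 718, 773, 793, 873 and 1137 at brown day 7, below most white arrays (1018 to 1719 and 1344 to 1696). The difference was 1.24 ± 0.25 (adjusted p = 0.0386). It no longer passed without array 05, 09, 11, 12, 19, 22, 34, 36, 37, 42 or 43 (1.10 to 1.40 over all arrays left out, adjusted p up to 0.0998), and with the Gapdh covariate the difference was 0.94 (adjusted p = 0.726).

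Rgs16 (94378_at), which shortens signals of G protein-coupled receptors, read 227, 367, 219, 414 and 338 at brown day 4 and 602, 599, 536, 509 and 590 at brown day 7, and 531 to 889 and 363 to 905 in white cells. The brown days were apart and the white days overlapped, and the difference was 1.28 ± 0.28 (adjusted p = 0.0477). The other probe set of Rgs16 gave 0.80 ± 0.29 and did not pass (adjusted p = 0.384). Gng11 (94377_at), a gamma subunit of G proteins, read 104, 118, 141, 127 and 119 and then 190, 138, 148, 184 and 222 in brown cells, and 61.9 to 84.0 and then 40.8 to 73.0 in white cells. Brown arrays lay above white arrays on both days, and the changes of 0.52 and -0.54 gave a difference of 1.06 ± 0.22 (adjusted p = 0.0423). With 1 array left out, Rgs16 passed only if that was 06, 10, 35, 39, 41 or 51 (1.16 to 1.44, adjusted p up to 0.119). Gng11 passed only if it was 06, 08, 09, 11, 33, 35, 40, 41 or 51 (0.97 to 1.16, adjusted p up to 0.102). With the Gapdh covariate the differences were 1.32 for Rgs16 (adjusted p = 0.334) and 0.97 for Gng11 (adjusted p = 0.507).

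Pdia6 (94208_at), a disulfide isomerase that folds proteins in the endoplasmic reticulum, differed through its fall in white cells. White arrays read 890 to 1379 (median 1175) at day 4 and 307 to 657 (median 452) at day 7, with no overlap. Brown arrays read 894, 979, 991, 1057 and 453 and then 756, 635, 859, 924 and 676. The difference was 1.20 ± 0.26 (adjusted p = 0.0477), and its other probe sets gave 0.71 ± 0.21 and 0.20 ± 0.27. With 1 array left out, it passed only if that was 06, 40, 44 or 51 (0.97 to 1.30, adjusted p up to 0.148), and with the Gapdh covariate it was 0.64 and did not pass. Of 30 tested genes of endoplasmic reticulum folding and stress, 6 were positive at an unadjusted p under 0.05, against 4.52% of all genes, and none was negative, against 2.80%, with a median of 0.04. With the Gapdh covariate the count at an unadjusted p under 0.05 was 0, but the share of all genes in that fit was not counted.

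Cidea, Cox7a1 and Fabp3, genes of the thermogenic programme, rose in brown cells, but their difference in change did not pass over all arrays. Cidea, a lipid droplet protein of brown fat, read 378, 182, 27.3, 32.6 and 226 at brown day 4 and 1083, 1754, 160, 472 and 268 at brown day 7. White arrays read 8.22 to 39.8 and 8.22 to 15.8. The brown days overlapped over all arrays, but in each run of adjacent array numbers, 05 to 08 and 09 to 12, both day 7 arrays lay above both day 4 arrays. Cidea gave a difference of 2.51 ± 0.83 (adjusted p = 0.286, 95% interval 0.81 to 4.21), which passed with runs as a fixed block (3.08, adjusted p = 0.0161) and not as a random block (2.63, adjusted p = 0.0756). Cox7a1, a subunit of cytochrome oxidase, read 194, 303, 25.1, 80.4 and 144 and then 888, 972, 238, 603 and 875 in brown cells, with a difference of 1.83 ± 0.72 (adjusted p = 0.449) that was 2.12 (adjusted p = 0.102) with the fixed block. Its day 7 arrays also lay above its day 4 arrays in each of these runs. Brown day 4 and day 7 arrays 09 and 11 were the lowest for both genes. The fatty acid carrier Fabp3 gave 1.65 ± 0.61 (adjusted p = 0.399), and the cytochrome oxidase subunit Cox8b, which rose in both cell types, gave 0.63 ± 0.57 (adjusted p = 0.857). The thermogenic list had 3 positive genes of 8 tested at an unadjusted p under 0.05, against 4.52% of all genes. The 7 listed genes that were on the array and not tested, Ucp1 among them, did not reach the signal filter. Of 20 genes of fatty acid oxidation, 3 were positive at that threshold (4.52% of all genes). A difference above 0 was estimated for 17 of them (49.7% of all genes), with a median of 0.26. Of 53 of the respiratory chain and ATP synthase, 6 were positive (4.52% of all genes). Under the median scaling 2 were positive, and the share of all genes there was not counted. Of these 53, 44 were above 0 (49.7% of all genes), with a median of 0.25.

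The general adipocyte genes gave differences whose intervals included 0. Adipoq, the hormone adiponectin, lay between 1169 and 4959 at brown day 4 (median 2476) and between 4772 and 6306 at brown day 7 (median 5604). In white cells it lay between 732 and 3099 at day 4 (median 2074) and between 4611 and 6336 at day 7 (median 5895). It rose in both cell types. Its difference was -0.41 ± 0.42 (adjusted p = 0.882), with a 95% interval of -1.27 to 0.46. The intervals were -0.87 to 0.35 for Pparg, the master factor of adipocytes, -1.03 to 0.20 for Cebpa, -0.70 to 0.38 for the fatty acid carrier Fabp4, -0.51 to 0.91 for leptin, Lep, and -1.49 to 1.10 for Thrsp, a regulator of lipid synthesis. The hormone resistin, Retn, rose in both cell types, by 4.36 in brown and 2.56 in white cells, with an interval of -0.16 to 3.77. These intervals allow differences from less than 2-fold to more than 4-fold, so equal change was not shown. On the adipocyte core list 1 of 31 genes was positive at an unadjusted p under 0.05 (4.52% of all genes). None was negative (2.80% of all genes), and the median was -0.16.

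Lineage markers set the cell types apart by much more than they moved between days. Zic1 and Lhx8, factors of the brown lineage, were higher in brown cells by at least 3.46 and 3.62 on the log2 scale at day 4. White cells were at the floor on all arrays for Zic1 and on 4 of 8 and 4 of 6 for Lhx8, so their white change was not measured in full. Their differences in change, which rest on the floored values, were -0.41 ± 0.31 and -0.12 ± 0.45. Tcf21 and Hoxc9, of the white lineage, were lower in brown cells at day 4, Tcf21 by at least 4.82, with 3 of 5 brown arrays at the floor, and Hoxc9 by 2.25, and their differences in change were -0.27 ± 0.32 and 0.55 ± 0.31. None of the 4 passed. The matrix protein gene Dpt rose by 1.19 in both cell types, with a difference of 0.00 ± 0.43, and the matrix protease gene Mmp3 rose by 3.10 and 1.75, with a difference of 1.35 ± 0.64 (adjusted p = 0.604). Ppara and Myod1 gave -0.32 ± 0.55 and -0.45 ± 0.26.

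Across the 39 gene lists, the highest medians were those of the endothelial (0.90) and thermogenic (0.48) lists and the lowest was that of striated muscle structure (-0.34). For the lists not yet described, counts at an unadjusted p under 0.05 are to be read against 4.52% positive and 2.80% negative of all genes. Matrix proteases and inhibitors had 5 positive of 19, with Ctsh the 1 that passed and a median of 0.34. Collagens and other matrix proteins had 7 positive of 54 (median 0.15). With array-number runs held as a block they had 22. The share of all genes in that fit was not counted, and 4.52% does not apply to it. Antioxidant and detoxification genes had 4 positive and 4 negative of 36, Gpx3 and Cyp2e1 among them. DNA replication genes had 0 of 41 in either direction (limma, 0 after adjustment), with a median of -0.20, and mitosis genes had 1 negative of 36. In both lists many genes fell in both cell types, 27 of 41 in brown cells (6.50% of all genes) and 30 of 41 in white cells (10.4%) for DNA replication. No gene passed in the other 25 lists. Smooth muscle and pericyte genes had 3 positive and 1 negative of 18, with Abcc9, a subunit of ATP-sensitive potassium channels, at 1.45 ± 0.35 (adjusted p = 0.0952). Chemokines and inflammatory cytokines also had 3 positive and 1 negative of 18, with Il1rn, the interleukin-1 receptor antagonist, at 2.38 ± 0.66 (adjusted p = 0.153). Both genes were named after their values were seen. BMP and TGF-beta signalling had 3 positive and 1 negative of 33, and developmental patterning 3 positive and 0 negative of 33. The remaining 21 lists had at most 2 in either direction, with medians of -0.19 to 0.43.

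**Figure D4:**
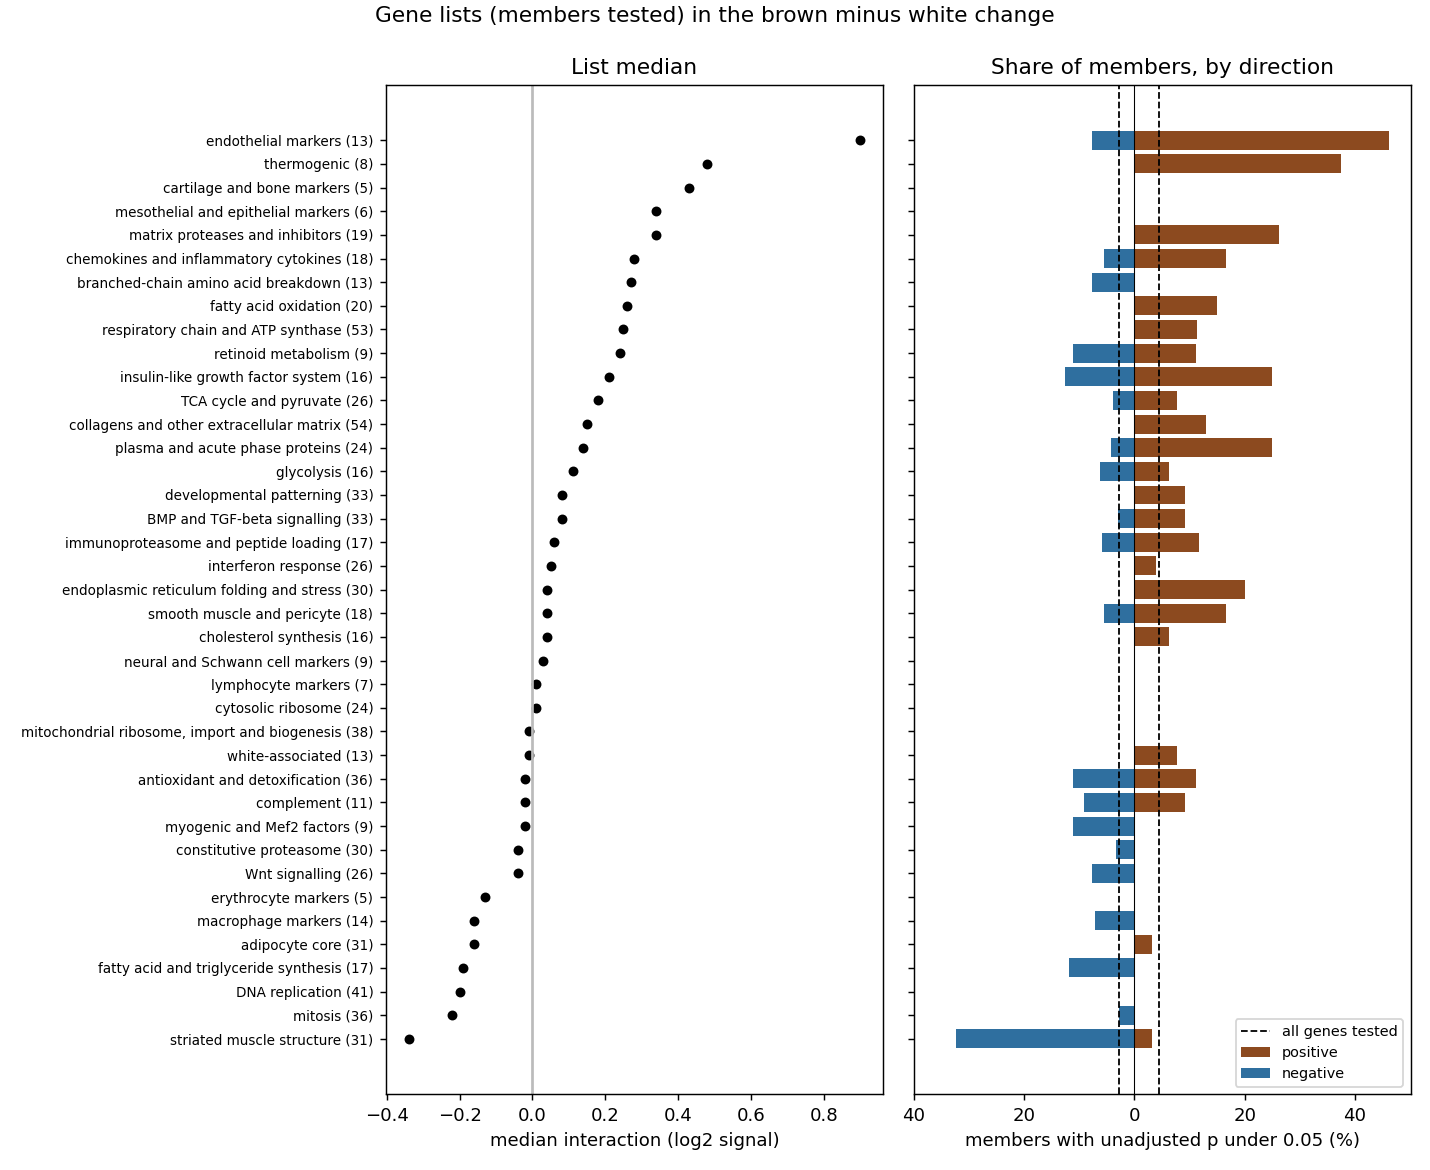
Left, the median difference in change (log2) of each of the 39 gene lists, with the number of tested members in brackets. Right, the percentage of members with an unadjusted p under 0.05, positive to the right and negative to the left, beside dashed lines for all 6281 genes (4.52% positive, 2.80% negative); the endothelial list reaches furthest to the right and striated muscle furthest to the left.

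Within runs of adjacent array numbers, the 18 genes could be compared without arrays 19, 22, 45 and 51. The 20 other arrays form 2 brown and 3 white runs of 4, each with 2 day 4 and 2 day 7 arrays, although the labels do not say what a run is. For Acta1 the change was -1.78 and -1.43 in the brown runs and 1.88, 1.34 and 0.66 in the white runs. For Kng1 it was 1.53 and 1.56 against 0.47, 0.35 and 0.56, and for Cyp2e1 0.13 and -0.05 against 1.92, 1.95 and 1.97. For all 18 genes the brown and white runs did not overlap, which their selection on the same arrays favours. The share over all tested probe sets was not counted. With the runs as a block 12 of the 18 passed, without white day 4 arrays 45 and 51 there were 11, and with the Gapdh covariate 5 passed, namely Fam167b, Ahsg, Acta1, Cyp2e1 and Aqp1. Under median scaling 6 passed, these 5 and Igfbp3. Leaving out single arrays ended the call for 11 of the 18 and for none of these 5 or of Gpx3 and Igfbp3. Fam167b and Aqp1 entered the test only through the group where they were high, so their passing in these fits is not independent of that selection.

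**Figure D5:**
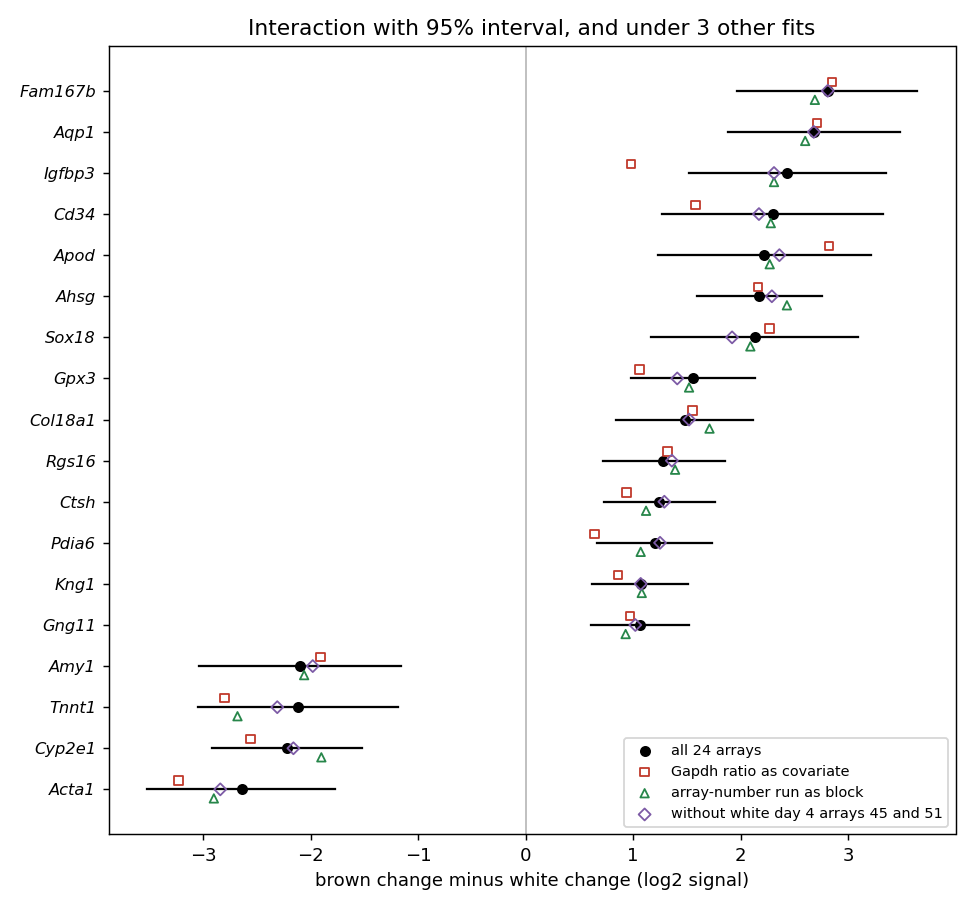
For each of the 18 genes, the black point is the difference in change (brown minus white, log2) over all 24 arrays and the line its 95% interval. Open symbols give the value with the Gapdh ratio as covariate (red squares), with array-number runs as a block (green triangles) and without white day 4 arrays 45 and 51 (purple diamonds); every symbol keeps the sign of its black point, and the largest shift is that of Igfbp3, from 2.43 to 0.98.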

How the data were processed

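The values the authors deposited are linear signal intensities, 1 for each probe set and array. The submitters' processing notes name MAS5, with no version given in the sources used here. MAS5 subtracts mismatch signal, so low values are noisy. Precision is limited by the number of arrays. Each array was scaled to a 2% trimmed mean of 150, a floor was set at 8.22, the overall 20th percentile, and log2 was taken. A probe set was tested if on 5 or more arrays it exceeded that array's 40th percentile. The 4 group means were fitted with limma 3.58.1 in R 4.3.3 (lmFit, eBayes with intensity trend, 20 residual degrees of freedom), a fit tested on simulated data. P-values were two-sided and adjusted over the 8397 probe sets by Benjamini-Hochberg, with a threshold of 0.05. Day labels were permuted within cell types for the exact test of the Gapdh and actin ratios (756756 arrangements).

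Symbols came from the platform annotation, where 10855 probe sets have a single symbol, 396 have more and 1237 have none. A gene was represented by its brightest tested probe set (6281 genes). Named genes were up to 15 in each direction by size among those that passed, a panel of 25 genes (22 tested), up to 4 that passed in each list, and up to 10 that passed in both cell types with opposite signs. All members, lists and the panel were chosen with earlier results of these data known. Promoters were those of RefSeq (GRCm38.p6), which held 14 of the 18 genes. Alternatives changed the scaling, floor, filter, variance model, weights, RNA ratio covariate, runs, probe set choice and single arrays.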

Additional observations from a re-analysis of the deposited data

Results flagged for a closer look

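The difference in change itself was tested, and the following genes passed it, on the log2 scale: Fam167b 2.81, Aqp1 2.68, Igfbp3 2.43, Cd34 2.30, Apod 2.22, Ahsg 2.17, Sox18 2.13, Gpx3 1.56, Col18a1 1.48, Rgs16 1.28, Ctsh 1.24, Pdia6 1.20, Kng1 1.07, Gng11 1.06, Amy1 -2.10, Tnnt1 -2.12, Cyp2e1 -2.22 and Acta1 -2.64.

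Single arrays that stood far from the rest of their group by Dixon's test were found in 5 of 132 tested groups of 39 named probe sets, and chance picks out about 1 in 20 groups. Groups with an array at the floor were not tested. Brown day 4 array 19 was low for Pdia6 (453, next 894) and for Tnnt1 (21.9, next 58.5). Brown day 7 array 22 was low for Cyp2e1 (33.5, next 71.6), and brown day 7 array 11 was low for Aqp1 (38.8, next 60.4). White day 7 array 40 was low for Ppara (14.4, next 37.1).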

How the results depend on the processing

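All 18 genes that passed kept their sign under every alternative run. The count of 18 became 6 with median scaling (4 positive, 2 negative), 35 with the higher floor, 10 with no floor, 10 with no filter, 8 with the stricter filter, 45 with array weights, 11 with no intensity trend, 42 with runs as a fixed block, 36 with runs as a random block and 5 with the Gapdh covariate. It was 8 with the actin covariate and 3 with the Gapdh covariate and no white day 4 arrays 45 and 51, both chosen after seeing the data. Of the 18 genes, 17 passed with the higher floor, 12 with the fixed block and all with array weights or the random block. Leaving out single arrays gave 7 to 23 calls, and fewer than 12 without brown arrays 05, 09, 10, 19, 07, 08, 11 or 12 or white arrays 33, 34, 37, 42, 45, 36, 39 or 43. The brown count of 1012 became 1665 with array weights and 672 to 1170 without single arrays, lowest without brown day 7 array 08. The white count of 1595 became 37 with the Gapdh covariate, 6 with the actin covariate, 1046 without arrays 45 and 51, and 60 with both changes (1134 to 1910 without single arrays). The Gapdh difference ran from -0.57 to -0.46 and the actin difference from -0.53 to -0.42 without single arrays, and the actin difference missed the threshold without arrays 45 and 51 (-0.42) and in runs only (-0.39). The causes were not tested.

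Signs turned only for panel genes that did not pass. With the Gapdh covariate, with and without arrays 45 and 51, these were Ppara (0.51, 0.50), Pparg (0.09, 0.04), Cebpa (0.10, 0.06), Thrsp (0.55, 0.46), Lhx8 (0.31, 0.33) and Tcf21 (0.11, 0.12). With the actin covariate they were Ppara 0.25, Pparg 0.01, Adipoq 0.20, Thrsp 0.36 and Lhx8 0.40. Others were Tcf21 with the higher floor (0.05), Fabp4 and Thrsp without arrays 45 and 51 (0.08, 0.18), Thrsp with the run block and in runs only (0.34, 0.34), and Dpt with median scaling (-0.02), quantile normalization (-0.06) and log2(signal + 16) (-0.18). Without single arrays Ppara ran from -0.61 to 0.14, Thrsp from -0.51 to 0.09, Lhx8 from -0.25 to 0.14 and Dpt from -0.16 to 0.19.

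The groups share no replicate numbers, so days were matched only through the array-number runs, and the labels do not say what a run is. Few arrays, signals near the floor and the RNA ratio of white day 7 limit these results.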
